A study of Mus musculus with 12 samples.

Results

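The LPS response of wild-type (WT) mouse peritoneal macrophages was taken from the 3 arrays titled WT LPS and the 3 arrays titled WT PBS, which are 6 of the 12 arrays in the series. The remaining 6 arrays hold macrophages of GPR15 knockout (KO) mice, 3 with PBS and 3 with LPS. Their values are given only where the WT response is set against theirs. All 12 arrays enter the fit, however, so the KO arrays share in the estimate of the spread and in the choice of each gene's probe. WT mice were C57/BL6, and their macrophages came from the abdominal cavity. The cells were kept in DMEM with fetal bovine serum and received either phosphate-buffered saline (PBS), the vehicle, or lipopolysaccharide (LPS) at 100 ng/ml for 4 h. KO cells had the same 2 treatments, so both genotypes share the medium, the vehicle and the dose, and WT cells carry no engineered allele. How macrophages were separated from other peritoneal cells, and the age and sex of the mice, are not given in the sources used here. The labels number the replicates 1 to 3 but do not say that each number is a separate mouse or culture, so the p-values measure the spread between these samples, which may be technical.

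LPS is the outer-membrane glycolipid of gram-negative bacteria, and macrophages bind it through CD14, MD-2 (the product of Ly96) and TLR4. TLR4 signals through MyD88 to NF-κB and AP-1, which drive inflammatory cytokine genes, and through TRIF to IRF3, which starts type I interferon production. Secreted interferon then acts back through its receptor on the interferon-stimulated genes. The peritoneal cavity holds GATA6-dependent large macrophages and a smaller population of monocyte-derived small macrophages, beside many B cells.

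RNA was labelled with Cy3 and hybridised to one-colour Agilent arrays of 62976 spots each, 59305 of them not controls. On the WT arrays between 48.8% and 53.5% of the non-control spots were well above background by the scanner software's own test, and no spot was saturated. A level is log2 of the processed signal minus the 75th percentile of that array's non-control spots, so a level of 0 is that percentile, and levels of different probes are not set against each other. Across the 12679 genes tested below, each by its brightest detected probe, replicate arrays of a group correlated at 0.991 to 0.998. Arrays of different groups correlated at 0.940 to 0.958. The first principal component of the 6 arrays over the same genes held 86.8% of the variance and split the arrays by treatment. The second held 7.73% and set replicate 3 of both groups apart, with scores of 19 and 18.5 against -14.4 to -4.36 for the other 4 arrays. All 6 WT arrays lay on one slide with KO PBS replicates 1 and 2. Gpr15 itself was well above background on 0 of the 6 WT arrays.

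Of 22911 gene symbols on the array, 12679 had a probe that passed detection on every array of the WT PBS group, the WT LPS group or both, and each gene is represented by its brightest such probe. Differences are log2 LPS minus PBS ± the standard error of the limma fit, with 3 arrays a group, and a gene is said to rise or fall, or to be called, where the Benjamini-Hochberg adjusted p over all 12679 genes is under 0.05. After 4 h, 8482 genes were called, 66.9% of those tested: 4397 rose (34.7%) and 4085 fell (32.2%). Most changes were small. A rise of at least 2-fold was called for 941 genes (7.42%) and a fall of that size for 1039 genes (8.19%). At 4-fold the counts were 220 up and 171 down, and at 8-fold 60 up and 33 down. These counts include genes below background in PBS or in LPS, whose fitted differences depend on how background was subtracted. The excess of falls at 2-fold was not stable. Among genes well above background on all 6 WT arrays, 793 rose and 756 fell at least 2-fold. The counts were 711 and 530 with a normexp background correction, and 998 and 974 under median scaling. Under quantile normalization they were 853 and 1084. The 3 LPS levels lay wholly above or below the 3 PBS levels for 9035 genes (71.3%). The median difference over all genes was 0.02. Without replicate 3 of both groups, 8206 genes were called and 2061 changed at least 2-fold. The balance of rises and falls depended on the scaling: rises were 51.8% of the calls here, 44.4% under quantile normalization and 36.7% when the 75th percentile was taken over probes well above background on all 12 arrays, which moved the median of all genes to -0.13. Small differences are to be read relative to this shift.

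**Figure D1:**
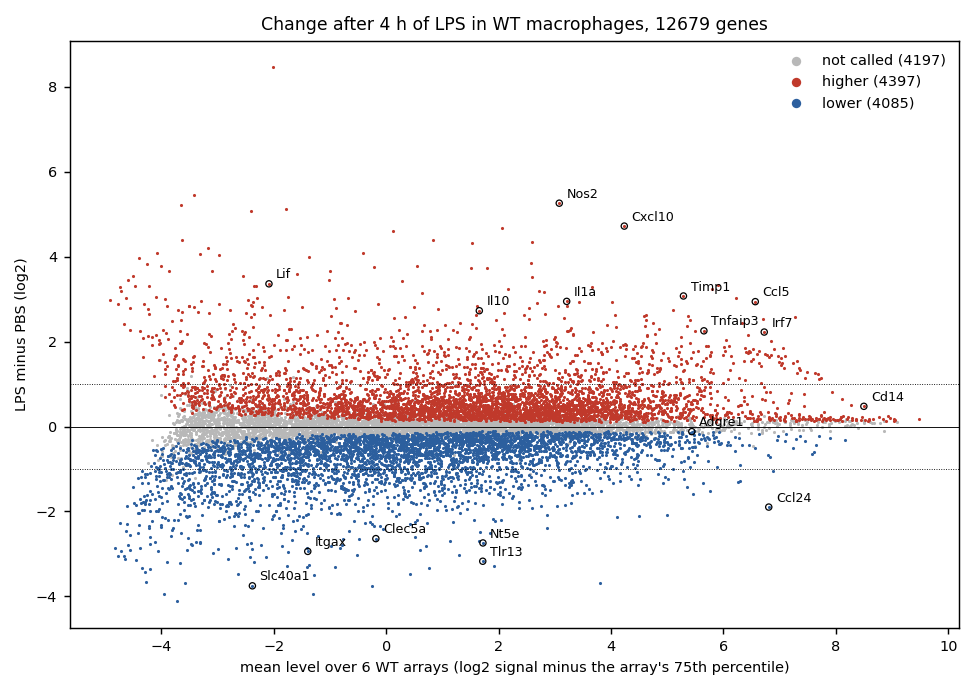
Each point is 1 of the 12679 genes, with its mean level over the 6 WT arrays (log2 signal minus the array's 75th percentile) on the horizontal axis and LPS minus PBS (log2) on the vertical axis. Red points were called higher (4397), blue lower (4085) and grey not called (4197), and dotted lines mark 2-fold. Timp1 and Ccl5 are bright genes that rose by about 3, and Ccl24 lies far below the other genes of like brightness.

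The genes named below were taken by a rule over gene lists, and the list counts should be read against the shares over all genes, 34.7% higher and 32.2% lower with a median of 0.02. A member with no probe above background in either group was not tested, and one that passed only through the group where it is high had to differ, so each list is given with how many of its members were measured. The lists and their members were chosen with earlier results of these data known. Directions of lists are therefore descriptions, and no set test was run. Unless overlap is stated, the 3 LPS levels of a gene given with its 6 values lay wholly to one side of its 3 PBS levels.

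Promoters of 7 genes of the response are printed in order of p, and each of these genes rose. Of the tested genes, 10141 had a promoter sequence in RefSeq (GRCm38.p6), taken as the 250 bases before the first listed start. Each sequence runs 5′ to 3′ in the direction of the gene, and capitals mark letters that match, on either strand, the consensus κB site bound by NF-κB, the interferon-stimulated response element (ISRE, a GAAA repeat with a gap of 2 bases), the AP-1 site TGANTCA or the cyclic AMP element TGACGTCA. The 7 genes are called members of the plotted panel that hold at least 1 match, so the presence of a match follows from the choice.
Tnfaip3: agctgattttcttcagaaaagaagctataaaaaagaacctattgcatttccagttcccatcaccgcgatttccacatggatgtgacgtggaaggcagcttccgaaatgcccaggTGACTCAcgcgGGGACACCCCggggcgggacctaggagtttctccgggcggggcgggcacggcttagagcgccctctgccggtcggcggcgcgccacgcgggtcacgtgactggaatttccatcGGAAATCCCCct
Cxcl10: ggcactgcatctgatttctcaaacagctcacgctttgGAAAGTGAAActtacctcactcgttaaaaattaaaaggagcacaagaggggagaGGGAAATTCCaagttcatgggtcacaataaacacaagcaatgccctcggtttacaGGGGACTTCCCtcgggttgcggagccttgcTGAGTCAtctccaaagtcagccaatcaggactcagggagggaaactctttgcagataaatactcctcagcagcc
Isg15: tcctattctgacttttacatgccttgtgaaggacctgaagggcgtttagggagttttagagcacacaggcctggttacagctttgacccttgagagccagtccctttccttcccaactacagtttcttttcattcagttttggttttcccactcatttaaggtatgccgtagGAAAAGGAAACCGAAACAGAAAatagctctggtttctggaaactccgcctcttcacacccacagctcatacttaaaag
Nfkbia: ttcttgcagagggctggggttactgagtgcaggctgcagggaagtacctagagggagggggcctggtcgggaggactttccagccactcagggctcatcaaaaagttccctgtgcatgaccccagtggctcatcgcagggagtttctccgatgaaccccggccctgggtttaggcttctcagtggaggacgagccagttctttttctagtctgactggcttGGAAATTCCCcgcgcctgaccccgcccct
Myd88: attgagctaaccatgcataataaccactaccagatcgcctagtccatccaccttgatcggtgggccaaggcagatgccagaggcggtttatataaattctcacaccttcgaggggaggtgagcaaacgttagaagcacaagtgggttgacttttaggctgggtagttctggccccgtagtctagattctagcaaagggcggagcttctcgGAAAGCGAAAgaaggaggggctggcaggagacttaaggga
Il6: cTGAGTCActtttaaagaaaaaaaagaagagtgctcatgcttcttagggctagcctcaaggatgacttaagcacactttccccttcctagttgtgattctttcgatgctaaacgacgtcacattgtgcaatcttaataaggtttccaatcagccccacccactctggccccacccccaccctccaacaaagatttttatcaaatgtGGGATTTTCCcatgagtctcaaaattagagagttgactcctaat
Irf1: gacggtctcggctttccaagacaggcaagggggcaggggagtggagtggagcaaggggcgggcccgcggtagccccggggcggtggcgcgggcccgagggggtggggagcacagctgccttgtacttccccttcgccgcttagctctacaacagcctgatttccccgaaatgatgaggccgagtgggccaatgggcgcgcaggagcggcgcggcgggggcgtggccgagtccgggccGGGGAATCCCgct
These genes are the NF-κB feedback inhibitors Tnfaip3 and Nfkbia, the chemokine gene Cxcl10, the ubiquitin-like modifier gene Isg15, the adaptor gene Myd88, the cytokine gene Il6 and the transcription factor gene Irf1. The windows are chr10:19015411-19015660 (minus strand) for Tnfaip3, chr5:92348890-92349139 (minus strand) for Cxcl10, chr4:156200819-156201068 (minus strand) for Isg15, chr12:55492648-55492897 (minus strand) for Nfkbia, chr9:119340019-119340268 (minus strand) for Myd88, chr5:30012864-30013113 (plus strand) for Il6 and chr11:53769764-53770013 (plus strand) for Irf1. Tnfaip3 holds 2 κB matches, 1 of them 12 to 3 bases before the start, and an AP-1 match. In Cxcl10 a κB match 159 to 150 bases before the start and an overlapping pair at 104 to 94 lie beside an ISRE match and an AP-1 match. Isg15 has 3 ISRE matches that overlap in 1 run, 78 to 57 bases before the start, and Myd88 has 1 ISRE match. Nfkbia and Irf1 have 1 κB match each, and Il6 has a κB and an AP-1 match.

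Among all 27025 promoters, 7.01% held a κB match, 3.04% an ISRE match, 6.87% an AP-1 match and 1.62% a cyclic AMP element. Among the 10141 tested genes the shares were 8.41%, 2.88%, 4.80% and 2.80%. Genes called at least 2-fold higher (737 with a promoter) held κB in 12.3%, ISRE in 8.82% and AP-1 in 8.82%. Genes called at least 2-fold lower (823 with a promoter) held κB in 8.87%, ISRE in 2.55% and AP-1 in 5.83%. At 4-fold higher (169 genes) the shares were 13.6%, 13% and 15.4%. At 4-fold lower (135 genes) they were 9.63%, 2.96% and 11.1%, so the AP-1 share was above that of the tested genes in both directions. The ISRE match was found in 8 of 9 promoters of interferon-inducible GTPases (88.9%) and in 14 of 44 promoters of antiviral interferon-stimulated genes (31.8%). A match is a description of these letters in this window and not a bound site.

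Secreted ligands gave the widest rises and also falls of homeostatic members. Tumour necrosis factor, the early macrophage cytokine, had levels of 0.94, 0.89 and 1.18 in PBS and 2.46, 2.45 and 2.24 in LPS. Interleukin-1α, released from damaged and activated cells, had 1.81, 1.92 and 1.49 in PBS and 4.63, 4.64 and 4.77 in LPS. Interleukin-10, which restrains macrophage activation, had 0.32, 0.38 and 0.18 in PBS and 3.07, 3.06 and 2.93 in LPS. In all of these the LPS arrays lay well above the PBS arrays and differed little among themselves. The differences were 1.38 ± 0.09 for Tnf (2.60-fold, adjusted p = 1.03e-07), 2.95 ± 0.11 for Il1a (7.70-fold, adjusted p = 9.30e-10) and 2.73 ± 0.10 for Il10 (6.62-fold, adjusted p = 1.13e-09). Il6, the acute-phase cytokine, stood at 6.30, 6.53 and 5.20 in PBS and 7.63, 7.63 and 7.79 in LPS, so its PBS level was already high and lowest on replicate 3. Its difference was 1.68 ± 0.25 (3.19-fold, adjusted p = 8.11e-05). Il1b behaved alike, with 5.60, 5.71 and 5.01 in PBS and 7.87, 7.93 and 8.10 in LPS and a difference of 2.52 ± 0.14 (5.75-fold).

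Of the interleukin-1 family and its receptors, 12 of 18 listed genes were measured and 11 rose with a median of 1.35, and none fell. Il1rn, the receptor antagonist that blocks interleukin-1, rose by 1.52 ± 0.20 and Il18, whose product drives interferon-γ release, by 1.17 ± 0.07. Il1rap, the shared receptor chain, rose by 1.03 ± 0.07, but by 0.60 when all of its probes were averaged. Of the interleukin-6 and interleukin-12 family, 9 of 12 were measured, 6 rose and none fell. Ebi3, the subunit that interleukin-27 and interleukin-35 share, rose by 2.24 ± 0.06 (4.72-fold). Il12b, the p40 subunit of interleukin-12 and interleukin-23, was well above background on no PBS array and all 3 LPS arrays, with mean levels of -4.68 and -2.83. It was at least 2.36-fold higher (adjusted p = 5.50e-07), where such a bound sets the mean of the bright group against, on each array of the dim group, the lowest signal among probes well above background or the gene's own signal if higher. Lif, a member of the interleukin-6 family, rose by 3.36 ± 0.62, and by 2.03 with a normexp background correction. This correction, here and below, adds an offset of 50 to each signal, which shrinks log2 differences of dim genes by construction. In the interleukin-10 family 5 of 7 were measured and 3 rose, or 1 when all 6 WT arrays had to be above background.

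Chemokine genes moved in both directions. In the CXC list 12 of 17 were measured, 7 rose and 2 fell, with a median of 1.18. The neutrophil attractants Cxcl1, Cxcl2 and Cxcl3 rose by 2.25 ± 0.11, 1.48 ± 0.11 and 1.48 ± 0.10. Cxcl5, another ligand of CXCR2, had 0.05, 0.35 and -1.49 in PBS and 3.36, 3.39 and 3.36 in LPS and rose 13.3-fold; its PBS replicate 3 was the lowest array. Cxcl14, a chemokine of resting tissue, had 2.52, 2.64 and 1.86 in PBS and 0.18, 0.23 and 0.49 in LPS and fell 4.11-fold (adjusted p = 8.21e-07). Ppbp, the platelet chemokine gene, was well above background on all PBS arrays and no LPS array, at mean levels of -2.61 and -4.58, and was at least 2.54-fold lower.

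In the CC list 12 of 19 were measured, 6 rose and 5 fell, with a median of 0.93. Ccl5, which draws T cells and monocytes, had 5.16, 5.22 and 4.91 in PBS and 8.05, 8.17 and 7.88 in LPS and rose 7.67-fold (adjusted p = 6.14e-09). Ccl3 and Ccl4, the macrophage inflammatory protein genes, rose by 1.97 ± 0.09 and 2.15 ± 0.15. Against these stood Ccl24, the eosinophil attractant eotaxin-2, a bright gene with 7.84, 7.93 and 7.49 in PBS and 5.92, 6.13 and 5.52 in LPS. Its groups did not overlap, and it fell by 1.90 ± 0.14 on the log2 scale (3.72-fold, adjusted p = 1.81e-07). Ccl27a fell by 0.79 ± 0.13, and by 0.39 with the normexp correction.

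Among colony-stimulating and haematopoietic factors 8 of 11 were measured, 4 rose and 3 fell. Il15, which sustains natural killer and memory T cells, had -0.49, -0.63 and -0.26 in PBS and 2.22, 2.17 and 2.54 in LPS and rose 6.82-fold (adjusted p = 2.08e-09). Flt3l, the growth factor of dendritic cells, had 0.28, 0.31 and 0.26 in PBS and -0.94, -1.04 and -1.09 in LPS and fell 2.48-fold. The 2 groups of both genes were wide apart. Of the TNF superfamily ligands 11 of 17 were measured, with 7 rises, 2 falls and a median of 1.81. Lta (lymphotoxin-α) rose by 2.43 ± 0.12, Tnfsf9 (the 4-1BB ligand) by 1.91 ± 0.10 and Tnfsf8 (the CD30 ligand) by 2.57 ± 0.16, the last by 1.55 with the normexp correction. Tnfsf12, which encodes TWEAK, differed by -1.77 ± 0.12, with 1 of 3 LPS arrays above background, and by -0.68 with the normexp correction.

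Secreted growth factors were measured for 25 of 29, with 13 rises and 7 falls. Inhba, the activin A subunit, had 3.61, 3.88 and 2.62 in PBS and 5.85, 5.82 and 5.98 in LPS and rose 5.71-fold (adjusted p = 1.80e-06). Hbegf, a ligand of the EGF receptor, rose by 2.23 ± 0.21, Adm (adrenomedullin, a vasodilator) by 1.91 ± 0.13 and Pdgfa by 1.25 ± 0.11. Transforming growth factor ligands moved the other way, Tgfb2 by -0.95 ± 0.08 and Tgfb3 by -2.14 ± 0.24. Spp1 (osteopontin), a matrix-binding cytokine, had 2.06, 2.03 and 1.84 in PBS and 0.26, 0.61 and -0.52 in LPS and fell 3.64-fold.

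**Figure D2:**
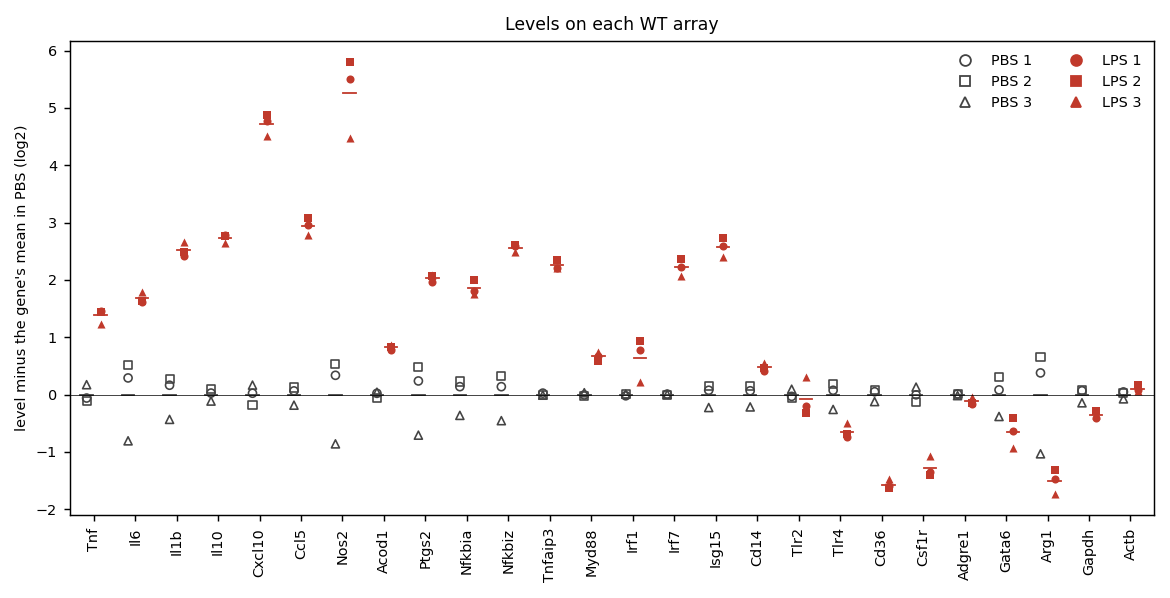
Levels of 26 panel genes on each WT array, as the level minus that gene's mean in PBS (log2), with open symbols for PBS, filled for LPS, a symbol shape for each replicate number and a dash for each group mean. PBS replicate 3 (open triangle) is the lowest PBS array for Il6, Ptgs2, Nfkbiz and Arg1, while Tnfaip3, Irf7 and Myd88 show almost no spread.

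The receptor side of LPS sensing had no common direction: 26 of 30 listed genes were measured, 9 rose and 10 fell, with a median of -0.03 whose sign changed with the scaling, and no rise reached 2-fold. Tlr4, the LPS receptor, had 2.16, 2.27 and 1.82 in PBS and 1.34, 1.39 and 1.58 in LPS and fell by 0.65 ± 0.10 on the log2 scale (adjusted p = 1.09e-04). Cd14, the LPS-binding co-receptor, was bright throughout with 8.32, 8.41 and 8.04 in PBS and 8.67, 8.73 and 8.81 in LPS, and rose by 0.48 ± 0.09. Tlr2, the receptor of bacterial lipopeptides, was at 5.98, 5.95 and 6.10 in PBS and 5.81, 5.69 and 6.31 in LPS with overlapping groups and was not called (difference -0.07 ± 0.14, adjusted p = 0.665). Tlr13, the endosomal receptor of bacterial ribosomal RNA, had 3.29, 3.15 and 3.47 in PBS and 0.14, -0.05 and 0.31 in LPS. It fell 9.01-fold (adjusted p = 4.72e-10), with no overlap. Sigirr, an inhibitor of interleukin-1 and Toll-like receptor signalling, fell by 2.12 ± 0.23. Ly96 differed by -1.33 ± 0.14 on its brightest probe and by -0.40 over its probes, 2 of which were called in opposite directions. Among cytoplasmic members, Myd88 rose by 0.66 ± 0.05, Irak3, the kinase-dead inhibitor of the MyD88 complex, by 0.77 ± 0.04, and Traf3 by 0.84 ± 0.07.

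Chemokine receptors were measured for 16 of 20, with 4 rises, 8 falls and a median of -0.71, or -0.54 with genes below background in a group placed at their bound. Ccr7, which guides cells to lymph nodes, had 4.79, 4.94 and 4.67 in PBS and 6.23, 6.24 and 6.25 in LPS and rose 2.72-fold (adjusted p = 6.26e-09). Cxcr5, the follicle-homing receptor, rose by 1.73 ± 0.07 and Ccrl2, a non-signalling chemerin receptor, 2.82-fold. Cxcr4, the receptor of CXCL12, had 1.58, 1.43 and 1.83 in PBS and -0.07, -0.24 and 0.62 in LPS and fell 2.85-fold. Ccr9 fell by 1.91 ± 0.10, Ccr6 by 0.63 ± 0.08 and Ccr2, the monocyte receptor of CCL2, by 1.11 ± 0.15, the last by 0.66 with the normexp correction. Several of these receptors are also carried by lymphocytes. Markers of B cells moved in the same samples: all 12 measured were well above background on all 6 arrays, 8 of them fell and none rose, and their mean level ran from 2.40 to 2.76 in PBS and from 1.39 to 1.63 in LPS. Their part in the receptor result was not tested.

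Of the other G protein-coupled receptors, 30 of 38 were measured, 18 rose and 8 fell. Adora2b and Adora2a, the receptors through which adenosine restrains macrophages, rose by 1.94 ± 0.10 and 1.36 ± 0.07. Gpr132, a receptor of oxidised lipids, rose by 1.05 ± 0.05 and Gpr183, the oxysterol receptor, by 0.94 ± 0.07. S1pr1, the receptor of sphingosine 1-phosphate, had 2.73, 2.75 and 2.71 in PBS and 1.34, 1.40 and 1.20 in LPS and fell 2.67-fold (adjusted p = 3.07e-09). C3ar1, the receptor of complement C3a, fell 3.00-fold.

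Uptake receptors leaned down. In the list of scavenger, phagocytic and Fc receptors 30 of 31 were measured, 11 rose and 16 fell, with a median of -0.32. Cd36, which takes up oxidised lipoprotein, had 4.23, 4.26 and 4.06 in PBS and 2.59, 2.56 and 2.70 in LPS and fell 2.97-fold (adjusted p = 3.71e-09). Cd300a, an inhibitory receptor of dead-cell phospholipid, had 3.11, 3.18 and 2.94 in PBS and 1.42, 1.48 and 1.28 in LPS and fell 3.21-fold. Mertk, which engulfs apoptotic cells, fell by 1.41 ± 0.15, Trem2 by 0.98 ± 0.10 and Tyrobp, the adaptor of Trem2, by 0.94 ± 0.06. The phosphatidylserine receptor gene Timd4 went the other way, by 0.76 ± 0.08. Fcgr1, the high-affinity receptor of immunoglobulin G, had 0.70, 0.93 and -0.68 in PBS and 2.98, 3.11 and 2.12 in LPS and rose 5.35-fold (adjusted p = 6.84e-05), with replicate 3 low in both groups.

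C-type lectins were measured for 19 of 26, with 5 rises and 8 falls, and their median of -0.01 changed sign with the scaling. With the replicate number as a block 9 rose and 8 fell. Clec5a, a DAP12-coupled activating lectin, had 1.14, 0.86 and 1.41 in PBS and -1.45, -1.37 and -1.69 in LPS and fell 6.23-fold (adjusted p = 2.98e-08). Cd209a, a relative of DC-SIGN, rose by 2.15 ± 0.30 and Clec2d by 1.09 ± 0.06. Among integrins and adhesion molecules 23 of 24 were measured, with 9 rises and 6 falls. Itgax, which encodes CD11c, had 0.09, 0.05 and 0.09 in PBS and -3.07, -2.99 and -2.52 in LPS and fell 7.67-fold (adjusted p = 7.13e-09). Itgam, which encodes CD11b, fell by 0.67 ± 0.07 and Itga6, the laminin receptor chain, by 1.33 ± 0.08. Vcam1, the ligand of α4 integrins, rose by 1.85 ± 0.16, and Cd47, the signal against phagocytosis, by 0.76 ± 0.05.

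Inside the cell, 19 of the 22 NF-κB subunits, inhibitors and kinases rose and 2 fell, with a median of 1.14, and all 22 listed genes were measured. Nfkbia, whose product IκBα returns NF-κB to the cytoplasm, had 6.27, 6.36 and 5.77 in PBS and 7.94, 8.12 and 7.87 in LPS and rose 3.61-fold (adjusted p = 9.00e-08). Nfkbiz, a nuclear IκB protein needed for secondary genes such as Il6, had 2.02, 2.20 and 1.42 in PBS and 4.47, 4.48 and 4.36 in LPS and rose 5.88-fold. Traf1, an adaptor of TNF receptors, had 3.73, 3.83 and 3.55 in PBS and 5.94, 5.96 and 6.08 in LPS and rose 4.88-fold. No array of the LPS group came near the PBS range in these genes. The subunit genes Nfkb2 and Relb rose by 1.28 ± 0.06 and 0.93 ± 0.05, Nfkbid by 1.37 ± 0.07 and Birc2, a ubiquitin ligase, by 0.97 ± 0.05. The falls were Ikbkg, the kinase scaffold NEMO, by 0.50 ± 0.07 (0.92 over all its probes) and Map3k14, the kinase of the alternative pathway, by 0.32 ± 0.07.

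Several brakes on that pathway rose with it. Of the ubiquitin editors and mRNA decay factors all 18 were measured, 11 rose and 5 fell. Tnfaip3, the A20 ubiquitin editor whose promoter is printed above, had 4.55, 4.51 and 4.51 in PBS and 6.72, 6.88 and 6.73 in LPS. Its replicates were close within each group, and it rose 4.77-fold (adjusted p = 8.02e-11). Tnip3 and Tnip1, which bind A20, rose by 3.42 ± 0.09 and 1.55 ± 0.07. Zc3h12a, the Regnase-1 nuclease that cuts cytokine mRNA, had -0.02, -0.06 and -0.40 in PBS and 2.10, 2.38 and 2.25 in LPS and rose 5.28-fold. The deubiquitinase gene Cyld fell by 0.70 ± 0.08, and by 0.37 over all its probes. Of 20 SOCS and MAP kinase phosphatase genes, all measured, 14 rose and 3 fell, with a median of 0.81. Dusp14 rose by 2.71 ± 0.22, Dusp16 by 1.82 ± 0.09, Dusp2 by 1.48 ± 0.06 and Socs1, the inhibitor of JAK kinases, by 1.28 ± 0.14. Dusp3 fell by 1.37 ± 0.08.

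All 31 AP-1 and immediate early factors were measured, with 18 rises and 5 falls. Batf, an AP-1 partner factor, had 2.83, 2.84 and 2.62 in PBS and 5.34, 5.34 and 5.49 in LPS and rose 6.19-fold (adjusted p = 7.91e-11). Myc, the growth regulator, had 2.17, 2.22 and 2.03 in PBS and 4.46, 4.47 and 4.30 in LPS and rose 4.82-fold. Cebpd rose by 1.88 ± 0.10, while Cebpa, a factor of the myeloid lineage, had 1.57, 1.38 and 2.01 in PBS and -0.56, -0.93 and -0.13 in LPS and fell 4.57-fold (adjusted p = 1.71e-06). Egr2, a factor of alternatively activated macrophages, fell by 1.80 ± 0.19, and Klf2, a brake on NF-κB activity, by 1.40 ± 0.11.

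The interferon branch rose broadly. Of 25 listed genes of interferon production and signalling 24 were measured, 18 rose and 2 fell, with a median of 0.68. Irf7, the factor that amplifies interferon-α genes, had 5.62, 5.60 and 5.62 in PBS and 7.84, 7.98 and 7.69 in LPS and rose 4.67-fold (adjusted p = 9.08e-10). Jak2 had 1.93, 1.90 and 2.01 in PBS and 4.05, 4.00 and 4.10 in LPS and rose 4.28-fold. Stat2 and Irf9, which carry the interferon signal to the nucleus, rose by 1.37 ± 0.08 and 0.89 ± 0.05. Irf1 differed by 0.64 ± 0.19 with 4.14, 4.18 and 4.16 in PBS and 4.93, 5.09 and 4.37 in LPS: LPS replicate 3 was close to the PBS arrays, and the call was lost under quantile normalization (0.41) and without LPS replicate 2 (0.49). Ifnb1, the interferon-β gene, was well above background on 1 PBS array and 1 LPS array and was not tested. The interferon-α gene Ifna4 was above background on no PBS array and all 3 LPS arrays, with mean levels of -6.28 and -2.73, at least 2.54-fold higher; probes of this gene family can share sequence.

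Of 58 listed antiviral interferon-stimulated genes 54 were measured and all 54 of these rose, 48 of them at least 2-fold, with a median of 1.85. Of 18 interferon-inducible GTPases 16 were measured and these 16 rose, 15 at least 2-fold, with a median of 1.76. Isg20, an RNA exonuclease, had 2.51, 2.55 and 2.59 in PBS and 5.47, 5.55 and 5.39 in LPS and rose 7.57-fold (adjusted p = 3.45e-11). Oasl1, which inhibits Irf7 translation, had 4.18, 4.13 and 4.41 in PBS and 7.57, 7.63 and 7.49 in LPS and rose 10.0-fold. Ifit1, which binds viral RNA ends, had 0.83, 0.75 and 0.90 in PBS and 4.42, 4.67 and 3.98 in LPS and rose 11.53-fold. Each was separated from PBS on every array. Slfn4 rose by 2.93 ± 0.10, Ifih1, the cytosolic RNA sensor MDA5, by 2.50 ± 0.08 and Isg15 by 2.57 ± 0.11. Among the GTPases, which act on pathogen vacuoles, Gbp5 rose by 2.29 ± 0.13, Gbp3 by 2.00 ± 0.11 and Igtp by 1.85 ± 0.10. Members of the Ifit, Slfn and Gbp families have near copies, and a probe may read more than 1 of them.

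MHC class I loading genes were measured for 17 of 18, with 13 rises, 2 falls and a median of 0.42. Tap1, the peptide transporter, had 2.76, 2.69 and 2.74 in PBS and 4.09, 4.12 and 3.94 in LPS and rose 2.50-fold (adjusted p = 3.52e-09). Nlrc5, the class I transactivator, rose by 1.25 ± 0.09 and Erap1, the peptide-trimming aminopeptidase, by 0.92 ± 0.10. All 18 class II and co-stimulation genes were measured, and here 5 rose and 11 fell, with a median of -0.53. The rises were in co-stimulation: Cd40 had 0.27, 0.36 and 0.25 in PBS and 2.87, 2.90 and 2.96 in LPS and rose 6.13-fold (adjusted p = 5.37e-09), Cd83 rose by 1.74 ± 0.08 and Cd274, which encodes PD-L1, by 1.76 ± 0.14. The peptide exchangers H2-DMa and H2-DMb1 fell by 1.16 ± 0.13 and 1.26 ± 0.12, and Cd1d1, the lipid presenter, by 1.35 ± 0.10. B cells also carry class II, and their markers fell in the same samples, as given above. Dendritic cells carry class II too, and their markers went the other way: of 9 listed 6 were measured, 4 rose and none fell, with a mean level from 0.75 to 1.00 in PBS and from 1.77 to 2.10 in LPS. Among these rises, Zbtb46 passed detection only in LPS. The part of these cells in the result was not tested.

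**Figure D3:**
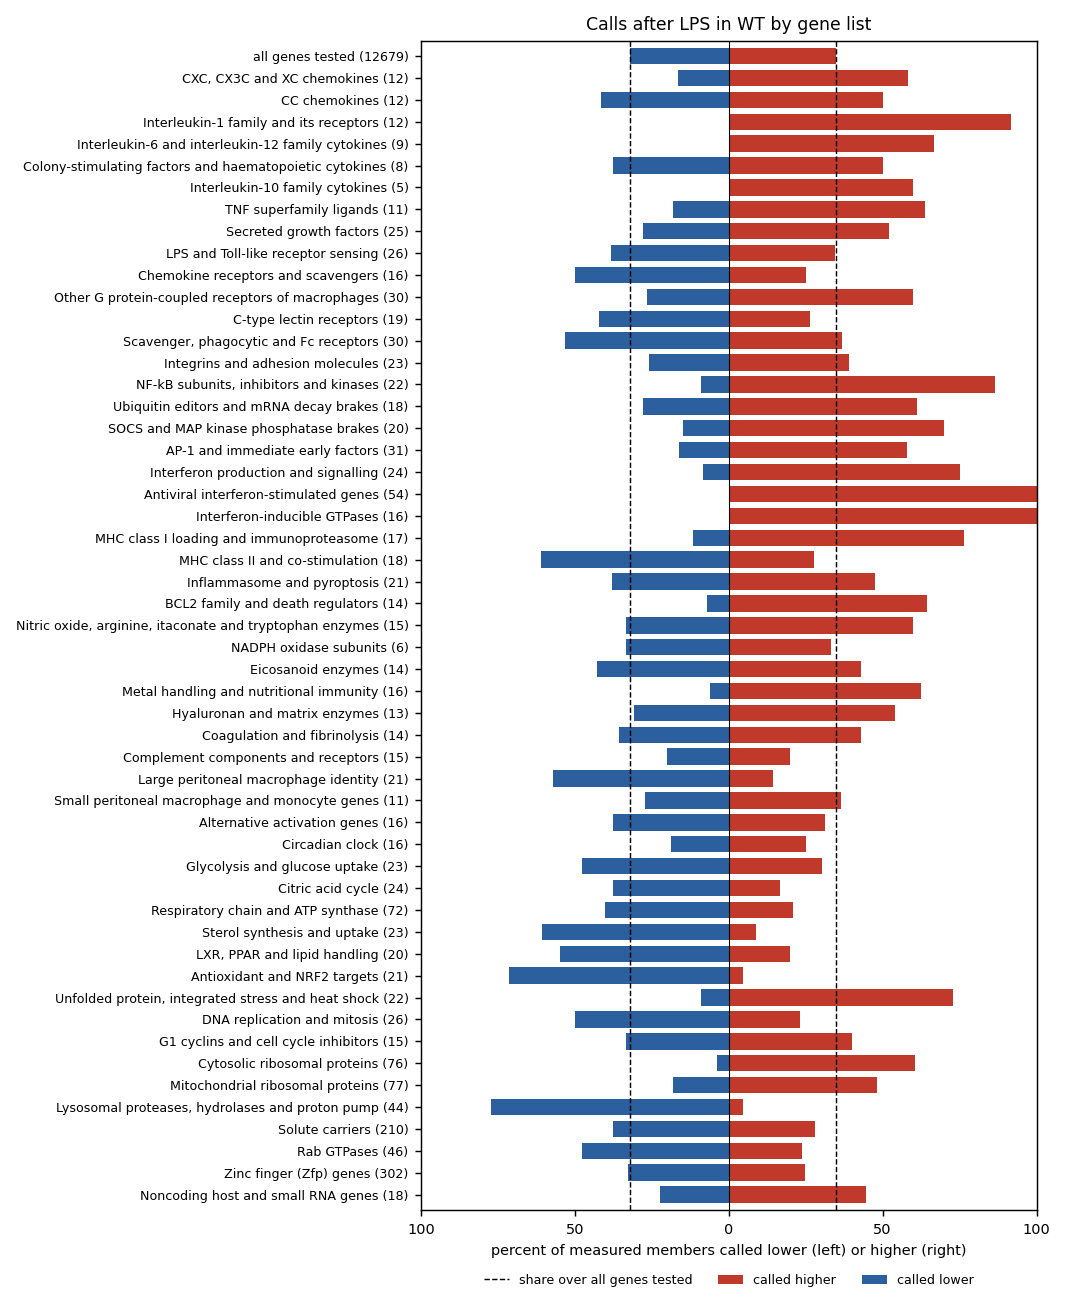
For each gene list, the percent of its measured members (number in brackets) called higher after LPS (red, right) or lower (blue, left); dashed lines mark the shares over all 12679 genes, 34.7% higher and 32.2% lower. Antiviral interferon-stimulated genes and interferon-inducible GTPases reach 100% on the right, and lysosomal genes, with 34 of 44 lower, extend furthest to the left.

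Inflammasome and cell death genes were mixed: 21 of 22 were measured, 10 rose and 8 fell, and the median of 0.06 changed sign with the scaling. Nlrp3, the sensor, rose by 1.11 ± 0.12. Casp4, the mouse caspase-11 gene that binds cytosolic LPS, had 4.48, 4.55 and 4.32 in PBS and 6.01, 6.12 and 5.98 in LPS and rose 3.00-fold (adjusted p = 3.71e-09). Mlkl, the effector of necroptosis, rose by 1.65 ± 0.15. Pycard, the adaptor ASC that joins sensor to caspase, had 3.05, 3.23 and 2.66 in PBS and 1.13, 1.21 and 1.11 in LPS and fell 3.55-fold (adjusted p = 1.21e-07). Naip1, an inflammasome sensor component, had -0.18, -0.12 and -0.52 in PBS and -3.31, -3.25 and -3.14 in LPS and fell 7.79-fold, or by 1.93 on the log2 scale with the normexp correction. P2rx7, the ATP-gated channel that triggers Nlrp3, fell by 0.68 ± 0.07. Of the BCL2 family and death regulators 14 of 17 were measured, 9 rose and 1 fell (4 under quantile normalization, 3 with the replicate block). Cflar, the caspase-8 inhibitor, rose by 1.16 ± 0.05, Bcl2 itself by 1.78 ± 0.12 and the pro-death member Bbc3 by 1.22 ± 0.08.

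Effector enzymes of arginine and itaconate were all measured (15 genes), with 9 rises and 5 falls. Acod1, which makes itaconate, was already bright and had 6.37, 6.28 and 6.38 in PBS and 7.13, 7.17 and 7.21 in LPS, a rise of 1.77-fold (adjusted p = 1.50e-07). The 2 arginases parted. Arg2, the mitochondrial enzyme, had 1.45, 1.49 and 1.30 in PBS and 3.16, 3.12 and 3.19 in LPS and rose 3.35-fold (adjusted p = 9.73e-10). Arg1, the cytosolic enzyme of alternative activation, had 4.96, 5.24 and 3.54 in PBS and 3.10, 3.26 and 2.85 in LPS and fell 2.85-fold (adjusted p = 0.00115), with replicate 3 lowest in both groups. Slc7a2, the arginine importer, rose by 1.45 ± 0.06, Odc1, which starts polyamine synthesis, by 1.62 ± 0.15 and Gch1, which supplies the cofactor of nitric oxide synthase, by 0.99 ± 0.05. The argininosuccinate lyase gene Asl fell by 0.69 ± 0.08.

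Eicosanoid enzymes were measured for 14 of 17, with 6 rises and 6 falls. Ptgs2, the inducible cyclooxygenase, had 5.26, 5.49 and 4.31 in PBS and 6.99, 7.09 and 7.11 in LPS and rose 4.11-fold (adjusted p = 5.17e-06). Ptges, which turns its product into prostaglandin E2, rose by 1.03 ± 0.07. The synthases of other prostanoids fell: Ptgis, of prostacyclin, by 1.32 ± 0.11 and Tbxas1, of thromboxane, by 1.40 ± 0.17.

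Genes of metal handling were measured for 16 of 18, with 10 rises and 1 fall. The fall was Slc40a1, ferroportin, the only known iron exporter. It had -0.63, -1.14 and 0.25 in PBS and -4.89, -4.76 and -3.11 in LPS, with 1 of 3 LPS arrays above background, and its difference was -3.75 ± 0.45 (adjusted p = 1.34e-05), or -2.13 with the normexp correction. Iron uptake genes stood against it, as Tfrc, the transferrin receptor, rose by 1.79 ± 0.07 and Slc11a2, an endosomal iron carrier, by 1.14 ± 0.05. The zinc importer gene Slc39a14 rose by 1.91 ± 0.21 and the zinc-binding metallothionein gene Mt2 by 2.02 ± 0.20.

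Of the hyaluronan and matrix enzymes 13 of 23 were measured, 7 rose and 4 fell. Timp1, the metalloproteinase inhibitor, had 3.98, 4.23 and 3.05 in PBS and 6.81, 6.81 and 6.85 in LPS and rose 8.41-fold (adjusted p = 1.36e-07). Mmp13 and Mmp14 rose by 1.78 ± 0.28 and 0.91 ± 0.15, while Mmp12, the macrophage elastase, fell by 0.89 ± 0.15. Of the coagulation and fibrinolysis genes 14 of 15 were measured, with 6 rises and 5 falls. Plau, the urokinase activator of plasminogen, had 1.29, 1.09 and 1.70 in PBS and -0.19, -0.14 and -0.09 in LPS and fell 2.82-fold (adjusted p = 3.78e-07). Plat, the tissue activator, was above background on no PBS array and all LPS arrays, at mean levels of -5.34 and -1.28, at least 6.92-fold higher. Procr, the protein C receptor, rose by 1.86 ± 0.12, and the coagulation factor gene F7 fell by 0.97 ± 0.11. In the complement list 15 of 17 were measured and 3 rose and 3 fell (7 under quantile normalization), with Cfb, of the alternative pathway, up by 0.54 ± 0.07, or by 0.31 under quantile normalization.

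Among genes of macrophage identity more fell than rose. Of 23 genes of large peritoneal macrophages 21 were measured, 3 rose and 12 fell, with a median of -0.48. Gata6, their master factor, had 2.49, 2.71 and 2.02 in PBS and 1.77, 1.99 and 1.47 in LPS and fell 1.58-fold (adjusted p = 0.00292), with PBS replicate 3 just above the highest LPS array. Nt5e, the ectoenzyme CD73 that makes adenosine, had 3.11, 2.97 and 3.20 in PBS and 0.21, 0.09 and 0.75 in LPS and fell 6.68-fold (adjusted p = 1.32e-08). Rxra, a nuclear receptor of these cells, fell by 0.77 ± 0.08. Adgre1, which encodes a macrophage surface receptor, differed by only -0.12 ± 0.04, and that call was lost in several alternatives. Csf1r, the receptor of the macrophage growth factor, had 6.93, 6.82 and 7.07 in PBS and 5.58, 5.53 and 5.87 in LPS and fell 2.43-fold (adjusted p = 4.11e-07). In the list of small peritoneal macrophage and monocyte genes 11 of 13 were measured, 4 rose and 3 fell: Flt3 rose by 1.27 ± 0.10 and Irf4 by 1.68 ± 0.14, while Itgax and Ccr2 fell as given above. Among alternative activation genes 16 of 18 were measured, with 5 rises and 6 falls. Il4ra, the interleukin-4 receptor chain, rose by 1.51 ± 0.11, while Retnla, a secreted product of alternatively activated cells, fell by 1.24 ± 0.28 and Pparg, a lipid-sensing factor, by 2.12 ± 0.16, or by 1.22 with the normexp correction.

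All 12 general macrophage markers were well above background on all 6 arrays, with a mean level from 4.43 to 4.72 in PBS and from 4.40 to 4.47 in LPS, so the labelled cell type carried its defining genes in both groups. Of these markers 2 rose and 8 fell. Lyz2, lysozyme, fell by 0.43 ± 0.12 and Cd68 by 0.49 ± 0.08. In bulk RNA, fewer cells of a type and less RNA per cell cannot be told apart. B-cell genes fell unevenly. Cd79b, of the antigen receptor, had 5.97, 5.85 and 6.32 in PBS and 3.86, 3.77 and 4.23 in LPS and fell 4.26-fold, Vpreb3 fell 4.65-fold and Ms4a1, which encodes CD20, 1.71-fold. Of 14 T-cell markers 11 were measured and 6 fell, Lat by 0.70 ± 0.09 and Cd3g by 0.65 ± 0.14. Measured markers of other cells gave 2 rises and 1 fall for natural killer cells (5 measured), 3 and 2 for neutrophils (7 measured), 3 and 2 for mast cells (9 measured), and 0 and 2 for mesothelial cells (2 measured). They gave 1 and 2 for eosinophils (5 measured), 1 and 0 for fibroblasts (2 measured), 1 and 1 for endothelial cells (2 measured) and none for erythroid cells (4 measured). Some of these genes passed detection only in the group where they are high. They are both mesothelial genes, Ms4a2 of mast cells and Mmp8 of neutrophils among the falls, and Gzmb of natural killer cells and Kdr of endothelial cells among the rises.

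**Figure D4:**
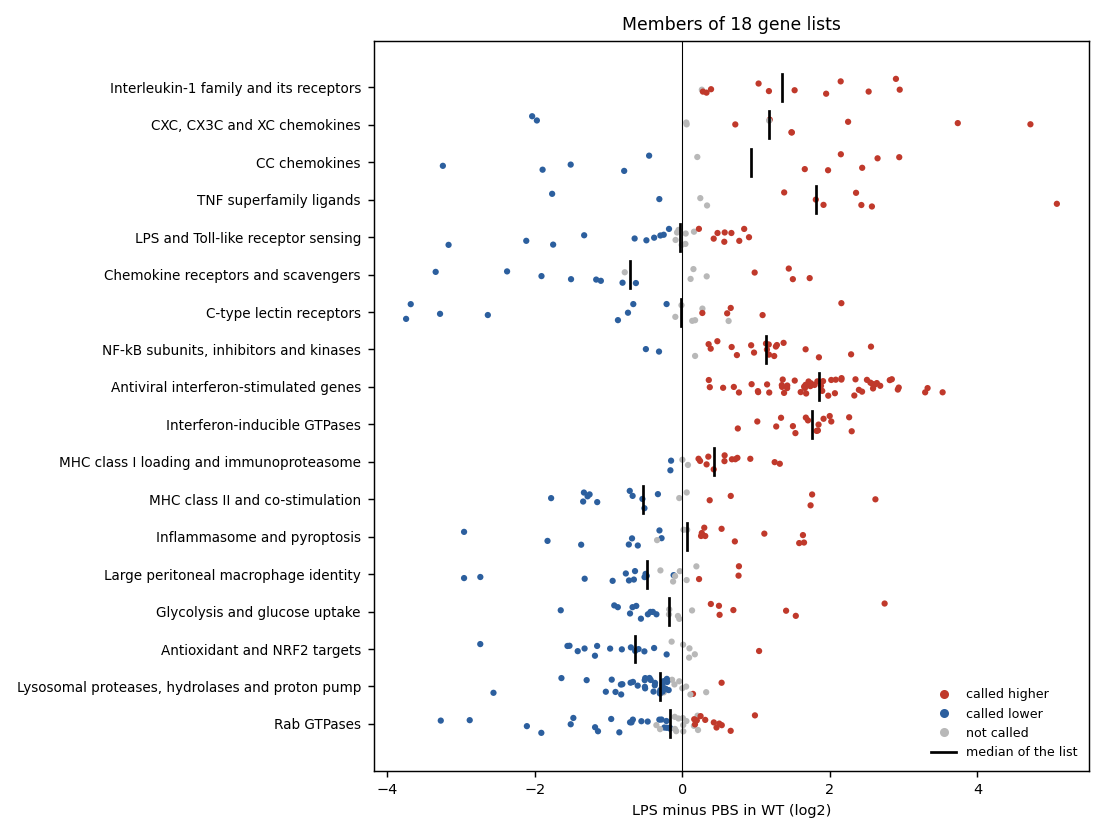
Each point is a measured member of 1 of 18 gene lists, placed by LPS minus PBS in WT (log2); red was called higher, blue lower and grey not called, and the black bar is the list's median. The antiviral genes lie wholly to the right around a median of 1.85, while chemokines, C-type lectins and inflammasome genes spread to both sides.

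Genes of energy metabolism moved both ways. All 23 glycolysis genes were measured, 7 rose and 11 fell, with a median of -0.18. Pfkfb3, which makes the activator of phosphofructokinase, had 3.95, 4.06 and 3.19 in PBS and 6.63, 6.69 and 6.11 in LPS and rose 6.69-fold (adjusted p = 1.87e-07). Hk2, hexokinase, rose by 1.41 ± 0.12 and Slc16a1, the lactate and pyruvate carrier, by 1.54 ± 0.20. Against them Pfkfb4 fell by 0.92 ± 0.07 and the mid-pathway enzyme Tpi1 by 0.56 ± 0.05. Gapdh, often used as a reference, had 6.33, 6.34 and 6.12 in PBS and 5.86, 5.97 and 5.90 in LPS and fell by 0.35 ± 0.06, or by 0.58 under quantile normalization. Actb was not called (0.10 ± 0.05), and its sign changed with the scaling. Of 24 citric acid cycle genes, all measured, 4 rose and 9 fell, and the falls were 16 under quantile normalization. Idh2, the mitochondrial isocitrate dehydrogenase, had 1.22, 1.097 and 1.36 in PBS and -0.07, -0.08 and 0.10 in LPS and fell 2.37-fold (adjusted p = 1.87e-07), and Mdh1 fell by 0.80 ± 0.07. Idh3a, of the NAD-dependent enzyme, rose by 0.73 ± 0.06. In the respiratory chain 72 of 75 were measured, 15 rose and 29 fell, and no difference reached 2-fold. These counts moved with the scaling, to 5 rises and 49 falls under quantile normalization, 4 and 48 under the percentile over probes above background on all arrays, and 15 and 17 under median scaling.

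Lipid genes fell more often than they rose. All 23 genes of sterol synthesis and uptake were measured, 2 rose and 14 fell, with a median of -0.36. Mvk and Pmvk, early mevalonate kinases, fell by 0.99 ± 0.07 and 0.97 ± 0.07, and Stard4, a cholesterol carrier, by 1.03 ± 0.08. Of the rises, Hmgcs1, of the mevalonate pathway (0.23 ± 0.04), lost its call at 0.07 under the percentile over probes above background on all arrays. Of 20 genes of LXR, PPAR and lipid handling, 4 rose and 11 fell. Ch25h, which makes 25-hydroxycholesterol, rose by 2.62 ± 0.08 (6.15-fold, adjusted p = 4.72e-10) with no overlap between the groups. Nr1h3, which encodes LXRα, had 1.06, 0.97 and 1.00 in PBS and -0.31, -0.25 and -0.70 in LPS and fell 2.70-fold (adjusted p = 1.67e-07). Acaca, the first enzyme of fatty acid synthesis, fell by 1.06 ± 0.05, while Fasn, the next enzyme, rose by 0.91 ± 0.07.

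Of 21 antioxidant and NRF2 target genes, all measured, 15 fell and 1 rose, with a median of -0.64. Prdx6 had 6.28, 6.33 and 6.31 in PBS and 5.02, 5.03 and 4.89 in LPS and fell 2.51-fold (adjusted p = 1.17e-09). Cat, catalase, had 1.98, 1.91 and 2.16 in PBS and 0.45, 0.44 and 0.56 in LPS and fell 2.89-fold, and Gpx4, which reduces lipid peroxides, fell by 0.98 ± 0.07. The rise was Sod2, the mitochondrial superoxide dismutase and an NF-κB target, with 3.56, 3.62 and 3.53 in PBS and 4.64, 4.66 and 4.53 in LPS (2.05-fold, adjusted p = 1.87e-08). Nqo1 was above background on all PBS arrays and no LPS array, at mean levels of -1.93 and -4.68, at least 4.06-fold lower. Of the stress genes (22, all measured) 16 rose and 2 fell. Ddit4, an inhibitor of mTORC1, had 4.08, 4.17 and 3.93 in PBS and 5.77, 5.80 and 5.76 in LPS and rose 3.29-fold (adjusted p = 9.08e-10), Chac1 rose by 1.31 ± 0.07 and Herpud1 by 0.99 ± 0.06, while the chaperone gene Pdia4 fell by 0.77 ± 0.08.

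Lysosomal genes had the highest share of falls among the lists plotted by percent called. Of 51 listed 44 were measured, 34 fell and 2 rose, with a median of -0.31. A fall of at least 2-fold was called for 4 of them. Npc1, the cholesterol exporter, had 3.95, 3.99 and 3.99 in PBS and 3.36, 3.39 and 3.35 in LPS and fell 1.52-fold (adjusted p = 1.20e-07). Lipa, acid lipase, had 3.01, 2.83 and 3.37 in PBS and 1.37, 1.34 and 1.58 in LPS and fell 3.12-fold (adjusted p = 1.87e-07). The protease gene Ctsl fell by 0.83 ± 0.07 and the proton pump gene Atp6v0a1 by 0.96 ± 0.08. Npc2, which hands cholesterol to Npc1, rose by 0.53 ± 0.05, or by 0.32 under quantile normalization, and the other rise, Gla, turned to -0.019 and -0.015 under other scalings. Of 57 Rab GTPases of vesicle traffic 46 were measured, 11 rose (6 under quantile normalization) and 22 fell. Rab30 fell by 1.91 ± 0.13, while Rab31 and Rab20, Rabs of the endosome and phagosome, rose by 0.98 ± 0.10 and 0.65 ± 0.07.

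Proliferation genes were mixed. Ccnd2, the G1 cyclin D2, had 4.79, 4.97 and 4.39 in PBS and 7.70, 7.76 and 7.76 in LPS and rose 8.12-fold (adjusted p = 8.76e-10). Gadd45b, a stress-induced growth regulator, had 3.46, 3.44 and 3.37 in PBS and 5.70, 5.70 and 5.94 in LPS and rose 5.12-fold. Rb1, the restriction-point repressor, fell by 0.83 ± 0.06. Of the G1 genes (15, all measured) 6 rose and 5 fell. Of 30 replication and mitosis genes 26 were measured, 6 rose and 13 fell, Mcm4 by 0.37 ± 0.05 and Plk1 by 0.94 ± 0.12. Cytosolic ribosomal protein genes (76 of 77 measured) gave 46 rises and 3 falls, and mitochondrial ones (77 of 78 measured) 37 rises and 14 falls. Under quantile normalization the cytosolic counts were 5 rises and 17 falls, and the mitochondrial falls were 30. Their medians were 0.15 and 0.10, and both were 0 or below under quantile normalization and the percentile over probes above background on all arrays, so their direction depends on the scaling. Mrpl3 rose by 0.63 ± 0.04 and Mrpl34 fell by 0.63 ± 0.05.

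Membrane carriers and zinc finger genes were measured in large numbers. Of 362 solute carriers 210 were measured, 59 rose and 79 fell. Slc7a3 and Slc7a1, cationic amino acid importers, rose by 2.02 ± 0.07 and 1.11 ± 0.04, Slc19a1, the reduced folate carrier, by 1.88 ± 0.07 and Slc28a2, a concentrative nucleoside carrier, by 2.52 ± 0.30. Of 370 Zfp genes 302 were measured, 75 rose and 99 fell. Zfp296 rose by 1.53 ± 0.07, and Zfp831 was above background on all PBS arrays and no LPS array, at mean levels of -1.68 and -5.78, at least 4.86-fold lower. Of 26 noncoding host genes of small RNAs 18 were measured, with 8 rises and 4 falls: Snhg16 rose by 1.27 ± 0.04 and Snhg1 by 1.18 ± 0.07. Clock genes (16 of 18 measured) gave 4 rises and 3 falls, with Ciart up by 1.59 ± 0.14 and Tef down by 1.03 ± 0.24.

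Outside the lists, the largest rises among genes above background on all 6 arrays included the small GTPase genes Rhou and Rnd1, Cdk5r1, the activator of the kinase CDK5, and Cd69, an early activation marker. Rhou had -1.90, -1.94 and -2.45 in PBS and 1.70, 1.78 and 1.47 in LPS and rose 13.4-fold (adjusted p = 1.72e-09). Cdk5r1 had -0.04, -0.04 and -0.14 in PBS and 3.67, 3.73 and 3.56 in LPS and rose 13.2-fold (adjusted p = 2.22e-11). Cd69 had 1.17, 1.27 and 1.22 in PBS and 4.37, 4.37 and 4.42 in LPS and rose 8.97-fold. In all 3 the groups were far apart, and PBS replicate 3 was the lowest array of Rhou. Il2ra, the interleukin-2 receptor chain CD25, rose by 3.23 ± 0.07, Wnt4 by 3.03 ± 0.18 and Rnd1 by 3.18 ± 0.13. The largest falls included Mtss1, an actin-binding membrane protein, Hhex, a homeobox factor, and Acss1, a mitochondrial acetyl-CoA synthetase. Mtss1 had 2.93, 2.86 and 3.24 in PBS and 0.30, 0.18 and 0.43 in LPS and fell 6.53-fold (adjusted p = 7.86e-10). Hhex had 0.42, 0.31 and 0.53 in PBS and -2.31, -2.24 and -2.61 in LPS and fell 6.98-fold. Acss1 fell by 2.70 ± 0.10, Arrb1, β-arrestin 1, by 2.64 ± 0.21 and Cd300lb, an activating receptor, by 3.02 ± 0.14.

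Some genes crossed the detection limit. In all, 85 genes were well above background on no PBS array and all 3 LPS arrays, and 52 of them were at least 2-fold higher as a bound. In the other direction there were 164 such genes, 154 of them called and 60 with a bound of at least 2-fold. The first count was 131 without LPS replicate 1, and the 154 called genes of the other direction were 294 without LPS replicate 2. Mgll, monoacylglycerol lipase, had mean levels of -5.83 in PBS and -1.44 in LPS and was at least 6.204-fold higher (adjusted p = 1.56e-07). Lipg, endothelial lipase, was at -5.27 and -1.07, at least 8.03-fold higher. Snai1, a repressor of epithelial genes, was at -4.93 and -1.27, at least 6.96-fold higher. These 3 genes were well above background on LPS arrays alone, and their fitted differences depend on how background was subtracted. Klhl14 was at -1.98 in PBS and -5.91 in LPS, at least 3.93-fold lower. Ypel2 was at -1.86 and -4.09, at least 4.27-fold lower.

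The same contrast in the KO arrays gave the comparison that the series was built for, whether loss of Gpr15 alters the response to LPS. The difference between the 2 LPS changes was called for 577 of 12679 genes (4.55%), 121 with a higher and 456 with a lower value in KO. With the replicate number as a block the count was 1036. It was 2656 without KO PBS replicate 3, 975 without WT PBS replicate 3, 371 without KO PBS replicate 1, and 366 without WT PBS replicate 1 or without KO LPS replicate 1. KO PBS replicate 3 was the only PBS array on the slide of the KO LPS arrays. Without it, slide and LPS cannot be told apart in KO. Of the 1980 genes that changed at least 2-fold in WT, 1882 were called in the same direction in KO, and 238 (12%) had a called difference. Some inflammatory genes had differences that were not called: Il10 rose by 2.73 ± 0.10 in WT and by 2.64 in KO (difference -0.09 ± 0.15, adjusted p = 0.77), and Tnfaip3 by 2.25 ± 0.06 and 2.40 (difference 0.14 ± 0.08, adjusted p = 0.318). The median change of the 54 measured antiviral genes was 1.85 in WT and 0.53 in KO, against 1.14 and 0.87 for the 22 NF-κB genes. Isg20 rose by 1.25 there against 2.92 ± 0.06 in WT (difference -1.67 ± 0.09, adjusted p = 6.84e-06). Irf7 rose by 0.70 against 2.22 ± 0.08 (difference -1.52 ± 0.11, adjusted p = 2.30e-05). Cxcl10 rose by 2.70 against 4.72 ± 0.13 (difference -2.02 ± 0.18, adjusted p = 4.31e-05). Il15 rose by 1.04 against 2.77 ± 0.11 (difference -1.73 ± 0.16, adjusted p = 5.30e-05). Among the 121 genes with a higher value in KO were Cxcl3, at 2.36 against 1.48 ± 0.10 (difference 0.88 ± 0.14, adjusted p = 0.00235), and Il1a, at 3.70 against 2.95 ± 0.11 (difference 0.75 ± 0.15, adjusted p = 0.0145). All KO LPS arrays and KO PBS replicate 3 lay on a second slide, and with slide as a term, which rests on the KO PBS arrays alone, 396 genes were called. Xist, which was chosen after its values were seen, was well above background on all 6 WT arrays and on 0 KO arrays. A sex-linked difference and genotype cannot be told apart in this comparison.

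**Figure D5:**
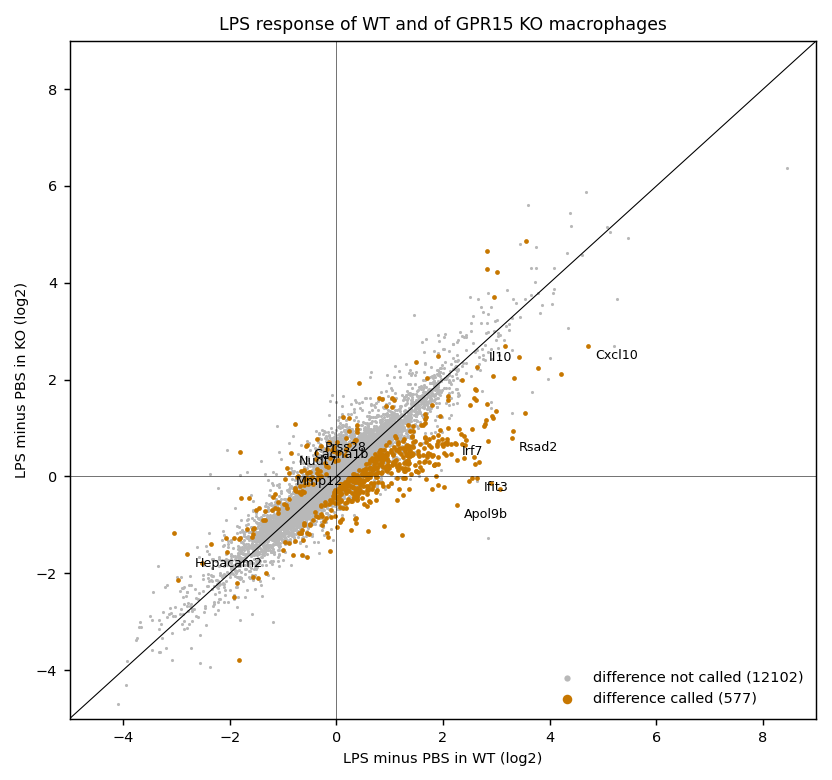
Each point is 1 of the 12679 genes, with LPS minus PBS (log2) in WT on the horizontal and in KO on the vertical axis; the diagonal marks equal change and orange points have a called difference (577). Orange points lie mostly below the diagonal on the right, where Rsad2, Ifit3 and Irf7 are named, while Il10 lies near the line.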

How the data were processed

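RNA of 12 samples was measured on one-colour Agilent arrays, and the deposited files hold scanner output, per the file headers of Agilent Feature Extraction 11.5.1.1. The processed signal is an intensity on a linear scale that the scanner software had already corrected for background, per the file headers. No label or header used here names a later normalization. Each array's log2 processed signal was lowered by the 75th percentile of its non-control spots. Spots of one probe were averaged without those flagged as outliers, but a probe whose spots were all flagged kept its value. With all flagged spots kept, 8482 genes were called, the same count. Probes took symbols through RefSeq (32994 of 56605 probes). The 12679 genes were fitted over all 12 arrays with limma 3.58.1 in R 4.3.3 (lmFit and eBayes with a mean trend), and adjusted p-values are Benjamini-Hochberg. For a single gene an exact test of 3 arrays against 3 cannot go below p = 0.1. Depth has no counterpart on arrays, and the number of arrays limits precision.

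Genes named are the 30 largest rises and falls, the 10 largest bounds each way, up to 6 called members a list with the lowest p, the 2 largest against the list's majority, and a fixed panel. The gene lists and the members were chosen with earlier results of these data known. Deviations of same-numbered WT arrays correlated at 0.168, 0.435 and 0.542, and those of differently numbered ones at -0.480 to 0.298. PBS replicate 1 correlated more with LPS replicate 2 (0.298) than with LPS replicate 1 (0.168). The numbers may therefore not pair all samples, and the replicate block is an alternative only. The fit recovered known changes in simulated levels drawn independently for each array, with few genes changed. Scaling, the detection filter, probe choice and deviations shared by arrays were not part of that simulation.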

Additional observations from a re-analysis of the deposited data

Results flagged for a closer look

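The change after LPS differed between KO and WT for 577 genes, by the interaction term of the limma fit. The 10 genes given here had the largest such differences, 5 in each direction, among genes well above background on all 12 arrays. Values are the KO change minus the WT change on the log2 scale.

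Apol9b, an apolipoprotein L family gene, changed by 2.25 ± 0.26 in WT and -0.59 in KO, a difference of -2.85 ± 0.36 (adjusted p = 5.47e-04). For Ifit3 the changes were 2.64 ± 0.15 and -0.03, a difference of -2.67 ± 0.21. Its near-identical copy Ifit3b gave -2.58 ± 0.22, and the 2 probes may read each other's RNA. Rsad2, which encodes viperin, differed by -2.49 ± 0.23 and Ifit1bl1 by -2.45 ± 0.19.

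Nudt7, a peroxisomal coenzyme A hydrolase, changed by -0.85 ± 0.10 in WT and 0.49 in KO, a difference of 1.34 ± 0.14 (adjusted p = 1.39e-04). Cacna1b, a calcium channel gene, differed by 1.21 ± 0.28, Hepacam2 by 1.19 ± 0.19, Prss28, a serine protease gene, by 1.14 ± 0.29 and Mmp12 by 0.97 ± 0.21. With slide as a term Cacna1b (0.64), Prss28 (0.64) and Mmp12 (0.75) were no longer called, and with the mean of all probes Hepacam2 (0.72) and Mmp12 (0.88) were not. Averaging the probes of Nudt7 gave 0.67. Of the 12 fits that leave out 1 array, Prss28 lost its call in 10, Cacna1b in 9 and Mmp12 in 6. Without the filter on dim probes Prss28 and Cacna1b were not called, and neither was Prss28 under quantile normalization (1.08) nor Cacna1b with normexp (0.54). The difference seen in Xist and genotype cannot be told apart.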

How the results depend on the processing

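The alternatives were other scalings, probe filters, ways to join probes, background corrections and models, and leaving out each array. The count of called genes ranged from 7884 to 8361 when 1 WT array was left out, and it was 9253 with the replicate block, of which 8367 were called in the same direction without it. Calls shared with quantile normalization numbered 7627 in the same direction and 6 in the opposite one. The count of genes changed at least 2-fold was 1241 with normexp and its offset of 50, 530 of them lower, and 4068 at 1.5-fold. Genes that crossed the detection limit numbered 0 in both directions when all 6 WT arrays had to be above background, by construction. Leaving out 1 WT array gave 91 to 131 genes that appeared and 156 to 294 that disappeared. The count of genes whose change differed between KO and WT was 1036 with the replicate block, 1181 without replicate 3 of both WT groups, and 366 to 2656 when 1 array was left out. The count of 2656 came without KO PBS replicate 3, where slide and LPS cannot be told apart in KO. Among the gene lists the block moved 6 counts by over 1.5 times. These were rises of C-type lectins (5 to 9) and antioxidant genes (1 to 2), and falls of BCL2 genes (1 to 3), complement genes (3 to 5), clock genes (3 to 5) and the interleukin-10 family (0 to 1). It changed no count of WT calls over all genes by that much.

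Averaging all probes turned Agbl3 to -0.13, Eml6 to -0.28, Itsn1 to -0.59, Mgl2 to -0.13 and Tns1 to -0.66, genes whose probes disagree. Gla turned to -0.019 under quantile normalization and -0.015 under the percentile over probes above background on all 12 arrays. The planned normexp correction of mean spot signals was not run, since the files used here hold no such column. It was run on median signals instead, and the fit without replicate 3 of both groups was likewise added after seeing the data. Under normexp Lif was at 2.03, Slc40a1 at -2.13 and Nqo1 at -1.19. The offset of 50 shrinks differences of dim genes by construction, and its share in these values was not tested. A gene near background has only a bound in its dim group. Quantile normalization also lowered rises of large peritoneal macrophage genes (3 to 1) and of the LXR and PPAR list (4 to 2).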

Other observations

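Different probes of a gene could disagree. Of 4398 genes with several probes kept, 3393 had a called probe, and 66 had probes called in opposite directions. Bcor, which encodes a transcriptional corepressor, had 1 probe at 1.13 and another at -1.03. Srgap2, a regulator of actin at the membrane, had probes at 2.03 and -0.87. St6gal1, a sialyltransferase, had probes at 0.72 and -2.33, and Tns1, tensin 1, at 0.72 and -2.04. In Itsn1, an endocytic scaffold, 1 probe rose (1.32) and 6 fell (down to -1.53). Which transcripts these probes read was not tested.

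A further 8792 kept probes carried no symbol in the table used here. Of these 4475 were called (50.9%), 2453 higher and 2022 lower, and 522 and 528 of them by at least 2-fold.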
